A study of Homo sapiens with 6 samples.

Results

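The genes described here are 7 carbonic anhydrases, CA12, CA2, CA5B, CA8, CA9, CA11 and CA13, taken by symbol from the 26364 rows of the count table and read in all 6 libraries. The libraries came from Ishikawa, a cell line of endometrial adenocarcinoma that carries the estrogen receptor. The parental Ishikawa line was compared with 2 derived clones, ETV4 KO clone 1 and clone 2, each a knockout of ETV4, a transcription factor of the ETS family; how the gene was disrupted is not given in the sources used here. Every line gave 1 library from cells in 0.1% DMSO, the vehicle, and 1 from cells in 10 nM estradiol (E2), all after growth in medium depleted of hormones. The treatment lasted 8 h according to the protocol and 1 h according to the sample characteristics. Within a treatment the clones thus gave n = 2 and the parental line a single library.

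Carbonic anhydrases are zinc enzymes that interconvert carbon dioxide and bicarbonate, and so set how fast a cell can buffer, import or export acid. The family is divided by location. CA12 and CA9 are anchored in the plasma membrane with the catalytic domain outside the cell, CA2 and CA13 are cytosolic, and CA5B is mitochondrial. CA8 and CA11 are carbonic anhydrase-related proteins, which keep the fold but have lost residues that hold the zinc and do not catalyse the reaction. In the uterus these enzymes take part in setting the pH and the bicarbonate of the luminal fluid. CA12 is known as a target of estrogen receptor alpha, and CA9 as a target of hypoxia-inducible factor.

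Of the 2 membrane-anchored members, CA12 changed most with E2 and CA9 was nearly without counts, so the stretch upstream of each is shown. The sequences are the 250 bases before the annotated start, from RefSeq on GRCh38.p14, 5′ to 3′ on the strand of the gene. The CA12 stretch is chr15:63381847-63382096 on the minus strand and the CA9 stretch is chr9:35673678-35673927 on the plus strand. Capitals mark GGTCA, the core of an estrogen response element, or its reverse complement TGACC in CA12, and ACGTG, the core of a hypoxia response element, or its reverse complement CACGT in CA9.
CA12: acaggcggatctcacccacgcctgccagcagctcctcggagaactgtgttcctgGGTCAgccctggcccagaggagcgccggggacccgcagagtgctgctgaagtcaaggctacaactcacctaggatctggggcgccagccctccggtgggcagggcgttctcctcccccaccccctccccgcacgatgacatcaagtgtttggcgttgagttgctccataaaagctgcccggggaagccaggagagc
CA9: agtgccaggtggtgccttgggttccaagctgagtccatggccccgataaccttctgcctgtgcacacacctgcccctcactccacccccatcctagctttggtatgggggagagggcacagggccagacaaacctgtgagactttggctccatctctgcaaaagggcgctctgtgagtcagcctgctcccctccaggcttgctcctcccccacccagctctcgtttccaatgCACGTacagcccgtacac
Both strands were searched. CA12 held 1 GGTCA, from 196 to 192 bases before the start and no full element (GGTCA, any 3 bases, TGACC). CA9 held 1 CACGT, from 18 to 14 bases before the start, and neither estrogen motif. Of 35116 upstream stretches of the same length, 32.6% held GGTCA, 18.5% held ACGTG and 0.0399% held the full element, on either strand. CCGGAA, a core bound by ETS factors, was in neither stretch and in 14.5% of all. A match describes the letters only and is not evidence of binding. The table of upstream sequences held 3 of the 7 genes. The third, CA5B, held 1 TGACC, from 113 to 109 bases before the start, and no full element. Its E2 change, given below, was -0.25 (SE 0.16).

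Libraries held between 28037392 and 36829479 counts. ETV4 had 586 and 1063 counts in the parental libraries and 71 to 122 in those of the clones, which matches the labels. All 9 markers of endometrial epithelium were above 1 CPM (the usual depth-scaled count, here after TMM scaling) in every library. Their summed level was 3270 to 3490 CPM in DMSO and 2580 to 2800 CPM in E2. Each E2 library was lower in this sum than any DMSO library. The markers did not move as 1: in the E2 fit below, 6 of the 9 changes were negative and 3 positive. KRT8, the most abundant, stood at 1025 to 1126 CPM in DMSO and at 591 to 754 CPM in E2. SOX17 went the other way, from 51.5 to 61.4 CPM in DMSO and 76.0 to 99.7 CPM in E2. Of 5 stromal markers 3 stayed below 1 CPM everywhere, while COL1A1 and COL3A1 did not; the summed stromal level was 46.1 to 73.6 CPM in the clones and 57.3 to 85.1 CPM in the parental line. COL3A1 alone stood at 1.33 to 3.33 CPM in the clones and at 7.93 and 9.73 CPM in the parental line. Among 4 leukocyte markers CD3E was at 0 and CD68 alone passed 1 CPM, with sums of 2.29 to 2.95 CPM in DMSO and 3.87 to 4.76 CPM in E2. Among 3 endothelial markers VWF alone passed 1 CPM, and the list summed to 2.60 to 3.98 CPM in the clones and 1.61 to 2.32 CPM in the parental line. The part of these levels in the results below was not tested.

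CA12 was the member that E2 raised most. It stood at 5.77 CPM in clone 1, 4.51 CPM in clone 2 and 3.03 CPM in the parental line in DMSO. In E2 it stood at 33.1, 35.7 and 27.5 CPM in the same order, from 968, 1042 and 1028 counts. All 3 E2 libraries lay above all 3 DMSO libraries, with a wide gap between them. With genotype in the model the log2 change was 2.88 (SE 0.18), a 7.36-fold rise, with an adjusted p of 0.00257 (edgeR quasi-likelihood F test), and it was the sixth-ranked p-value of 15611 genes. CA12 was the only member called in this fit, which called 1.13% of all genes. In bulk libraries more cells with the transcript and more transcript per cell cannot be told apart.

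**Figure D1:**
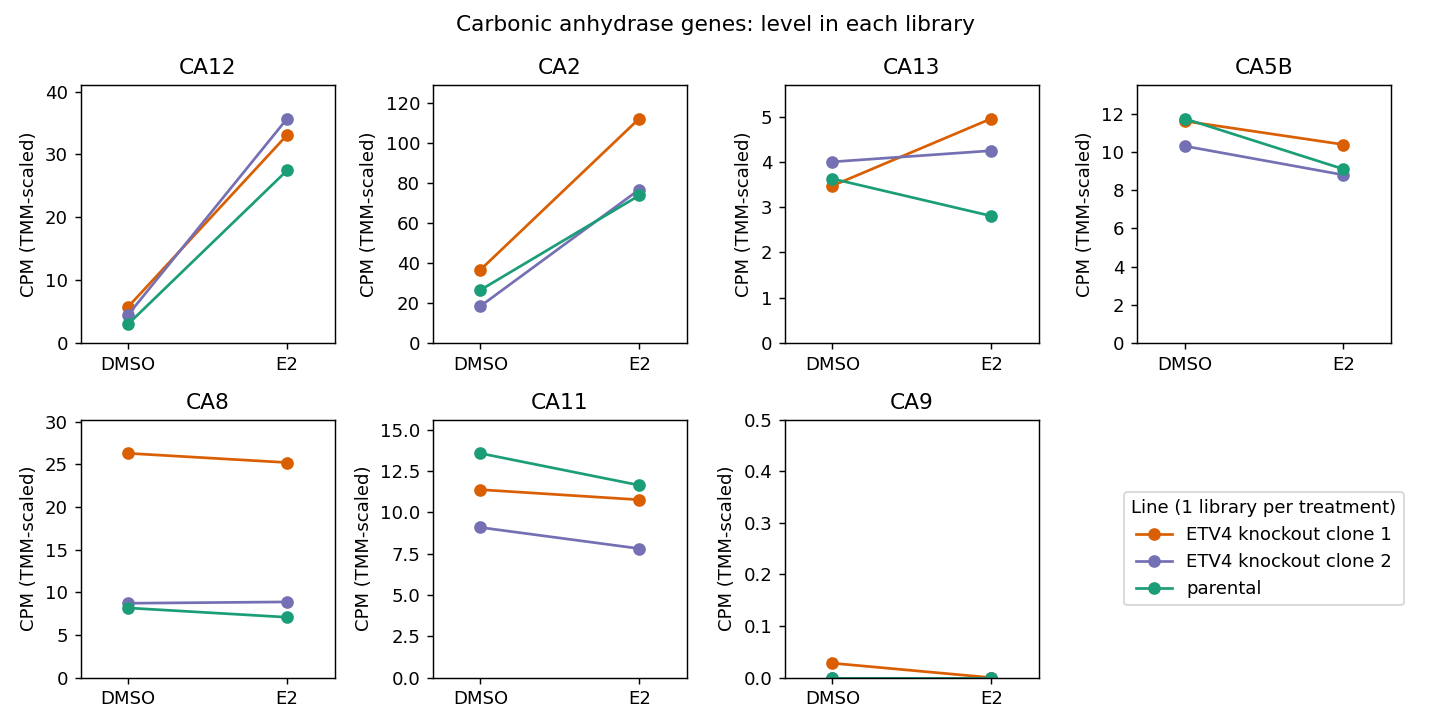
Level of each carbonic anhydrase gene in each of the 6 libraries, in CPM (vertical axis, from 0), in DMSO and E2 (horizontal axis); points of 1 line are joined, and each point is 1 library. CA12 and CA2 were higher in E2 in each line, CA8 was high in both libraries of clone 1, and CA9 had at most 1 count.

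The cytosolic enzyme CA2, one of the fastest of the family, was also higher in E2 in each line. In DMSO it stood at 36.5 CPM in clone 1, 18.4 CPM in clone 2 and 26.4 CPM in the parental line. In E2 the levels were 112, 76.6 and 73.7 CPM. The E2 and DMSO libraries did not overlap, and clone 1 was highest under both treatments. The log2 change was 1.68 (SE 0.28), 3.21-fold, with an adjusted p of 0.0509 in edgeR, just outside the threshold of 0.05. With line as a replicate block, which removes the differences between lines, the change was 1.72 (SE 0.15; adjusted p 0.00635, edgeR), in a fit that called 2.46% of all genes. CA2 also passed in DESeq2 (1.68, adjusted p 2.26e-07), which called 7.58% of genes, in limma-voom (1.71, adjusted p 0.0466), which called 1.11%, and with no filter on low counts (adjusted p 0.0439 in edgeR), which called 0.845%. It passed without clone 1 and without clone 2, in fits that called 4.83% and 21.6% of genes. CA2 did not pass with median-ratio scaling (adjusted p 0.0526), with at least 10 counts required in every library (0.0501) or without the parental line (1.77, adjusted p 0.181), all in edgeR.

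Both genes were at least 2-fold higher in E2 in each of the 3 lines when single libraries were compared, which held for 1.51% of the genes tested. The CA12 log2 ratio was 2.51 in clone 1, 2.97 in clone 2 and 3.16 in the parental line. The CA2 ratio was 1.62, 2.06 and 1.48. For CA12 the parental line changed most, and for CA2 clone 2, whose DMSO level was lowest, changed most.

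**Figure D2:**
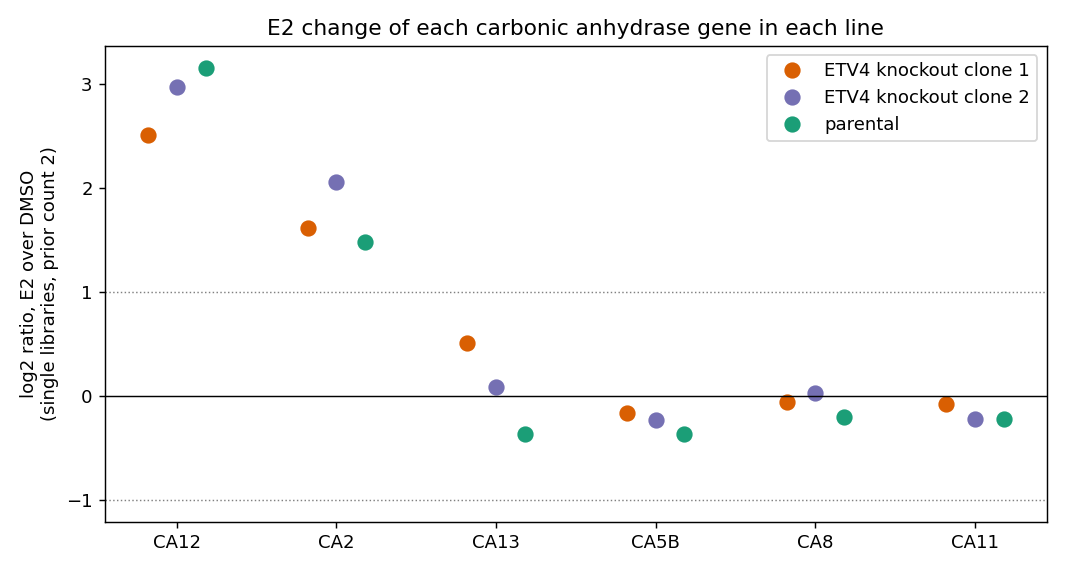
E2 change of the 6 members that passed the filter on low counts, as the log2 ratio of the E2 over the DMSO library of a line (vertical axis; prior count of 2), 1 point per line; dotted lines mark 2-fold. CA12 lies between 2.51 and 3.16 and CA2 between 1.48 and 2.06, while the other 4 genes stay within 2-fold in each line.

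The remaining members did not pass in the E2 fit. CA13, the other cytosolic enzyme, stood at 3.48, 4.004 and 3.63 CPM in DMSO and at 4.96, 4.25 and 2.81 CPM in E2, in clone 1, clone 2 and the parental line. It was higher in E2 in both clones and lower in the parental line, so the treatment groups overlapped, and the fitted change was 0.08 (SE 0.23). The mitochondrial enzyme CA5B stood at 11.6, 10.3 and 11.8 CPM in DMSO and at 10.4, 8.81 and 9.11 CPM in E2. Each line was a little lower in E2 and the groups overlapped slightly, with a fitted change of -0.25 (SE 0.16; adjusted p 0.383, edgeR). CA11, a related protein that is secreted, showed 11.4, 9.09 and 13.6 CPM in DMSO and 10.8, 7.81 and 11.7 CPM in E2, a change of -0.17 (SE 0.19). It was lower in E2 in each line, and the treatment groups overlapped. CA8, the related protein that binds the inositol trisphosphate receptor, changed by -0.09 (SE 0.49). CA9 had 1 count in the DMSO library of clone 1 and 0 in the other 5, where a count of 0 allows at most 0.0802 to 0.103 CPM. It failed the filter on low counts and was not tested.

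The median E2 change of the 6 members tested was -0.01, against -0.02 over all genes tested, with 3 positive and 3 negative values. CA5B overlaps CA5BP1, a near-copy, and CA2 overlaps CA3-AS1 on the other strand; CA11 overlaps SEC1P and CA9 overlaps ARHGEF39, also on the other strand. Whether strand was used in counting is not given in the sources used here, so reads of these pairs may have been divided or shared. CA5BP1 itself stood at 4.68 to 5.88 CPM. CA3-AS1 had 8 to 29 counts against 541 to 3276 for CA2. No annotated gene overlapped CA12 or CA8.

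Levels of different genes were compared per kilobase of exon, with exon lengths from GENCODE release 29, which may not be the annotation the counts were made with. CA2 led in each library, from 10.7 to 65.3 CPM per kb, and no other member exceeded 7.36 CPM per kb. In the parental line in DMSO the order below CA2 was CA11 at 7.36, CA8 at 2.14, CA5B at 1.72, CA13 at 0.952 and CA12 at 0.472 CPM per kb. In E2 the parental level of CA12 was 4.28 CPM per kb, which placed it after CA2 and CA11 (6.32). In the clones in DMSO CA12 stood at 0.802 ± 0.139 CPM per kb (SD, n = 2), which overlapped CA13 at 0.980 ± 0.0981 within the spread. Within a library CA12 was below CA13, at 0.900 against 0.911 in clone 1 and 0.704 against 1.05 in clone 2. In E2 the clone mean of CA12 was 5.37 ± 0.287 CPM per kb (SD, n = 2), within the spread of CA11 at 5.04 ± 1.13 and of CA8 at 4.47 ± 3.03. The order differed by clone. In clone 1 CA12 (5.16) was below CA11 (5.84) and CA8 (6.61), and in clone 2 CA12 (5.57) was above CA11 (4.24) and CA8 (2.33).

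**Figure D3:**
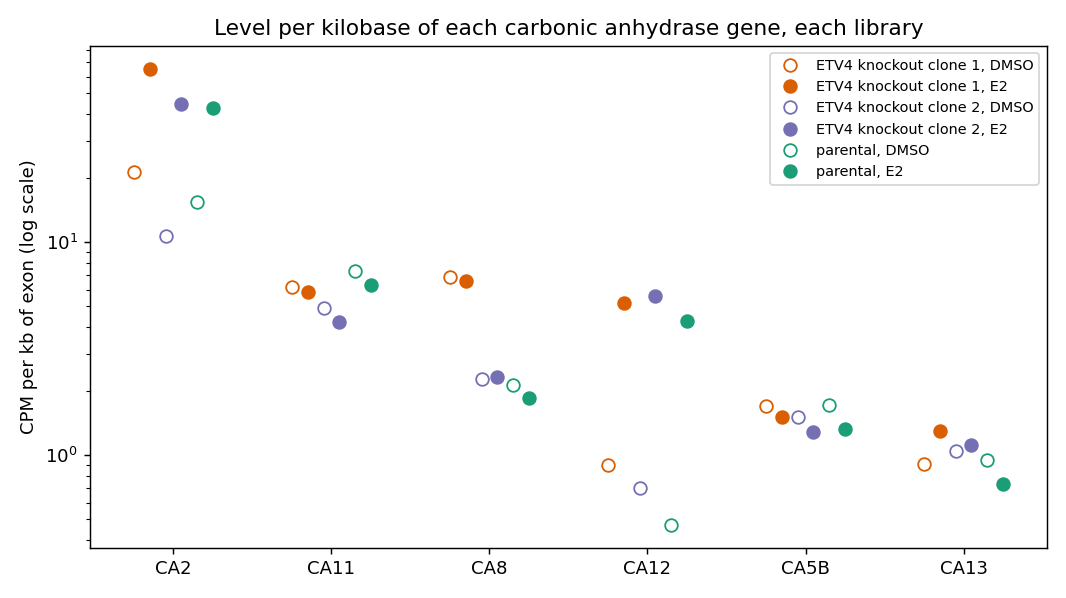
Level per kilobase of exon of the 6 members with counts in each library (vertical axis, log scale, CPM per kb), with open points for DMSO and filled points for E2, coloured by line. CA2 lies highest in each library, and CA12 moves from between 0.472 and 0.900 in DMSO to between 4.28 and 5.57 in E2.

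The second comparison asked whether the members differed between the ETV4 knockout clones and the parental line with treatment in the model. None of the 6 members tested had an adjusted p below 0.05, in a fit that called 0.327% of all genes. DESeq2 and limma-voom also called no member, and called 3.13% and 0.365% of all genes. In edgeR 1 of the 6 had an unadjusted p below 0.05, as did 1787 of all 15611 genes tested. That 1 was CA12, at a log2 difference of 0.52 (SE 0.18; adjusted p 0.365, edgeR). Both clones were above the parental library in DMSO and in E2. The differences were 0.21 (SE 0.29) for CA2, 0.37 (SE 0.25) for CA13, -0.01 (SE 0.17) for CA5B and -0.37 (SE 0.19) for CA11. For CA2 the clones lay on opposite sides of the parental library in DMSO, at log2 ratios of 0.47 (clone 1) and -0.52 (clone 2). In E2 the CA2 ratios were 0.60 and 0.06. CA11 was below the parental library in each clone under each treatment, by 0.11 to 0.58 on the log2 scale, and its adjusted p was 0.493 in edgeR. The parental line is 1 line, so genotype and line cannot be told apart.

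CA8 had the largest difference, 1.18 (SE 0.55), and it was carried by 1 clone. In clone 1 its level was 26.3 CPM with DMSO and 25.2 CPM with E2, from 938 and 737 counts. Clone 2 stood at 8.72 and 8.88 CPM and the parental line at 8.17 and 7.08 CPM, from 243 to 265 counts. The levels of clone 2 and the parental line lay close together and far below clone 1, and the E2 log2 ratio within a line was between -0.20 and 0.03. The log2 ratio of clone 2 to clone 1 was -1.58 in DMSO and -1.50 in E2. Genes at least 2-fold above clone 2 in clone 1 under both treatments made up 1.91% of those tested. The adjusted p of CA8 in the knockout fit was 0.465 in edgeR. Without clone 2 the difference was 1.76 with an adjusted p of 2.49e-15, in a fit that called 6.41% of genes, and without clone 1 it was 0.20 with an adjusted p of 0.833, both in edgeR with 1 residual degree of freedom.

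**Figure D4:**
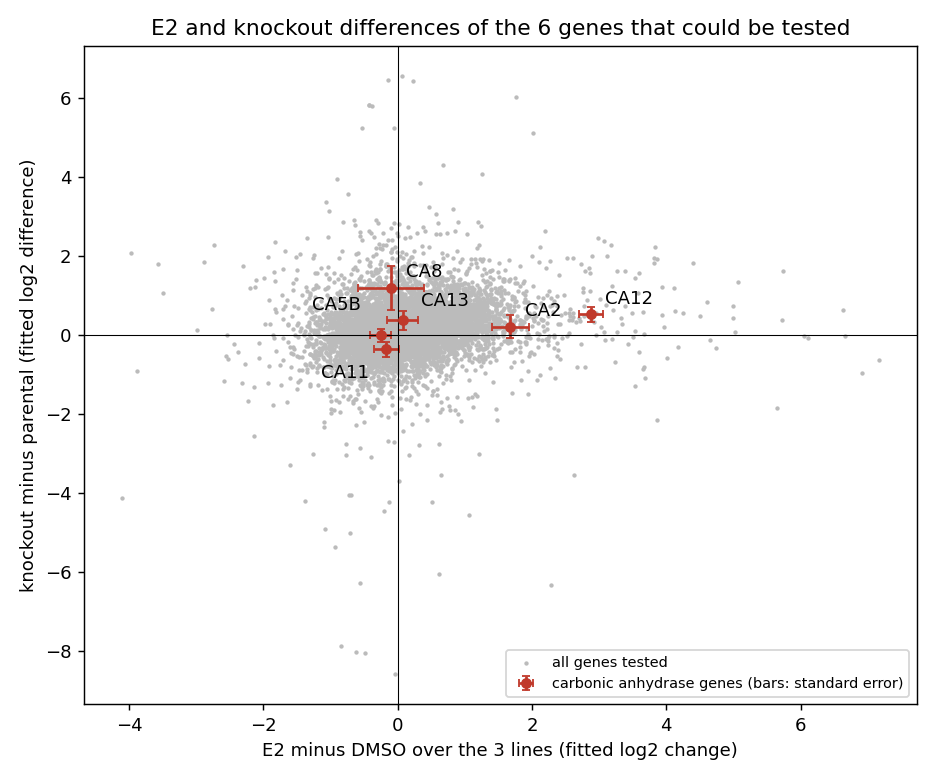
Fitted log2 change with E2 (horizontal axis) against fitted log2 difference between knockout clones and parental line (vertical axis) for all 15611 genes tested (grey) and the 6 members tested (red, bars are standard errors). CA12 lies at 2.88 and CA2 at 1.68 on the horizontal axis, and CA8 lies at 1.18 on the vertical axis with the widest bars.

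The third comparison asked which members responded to E2 in the clones alone. CA12 was called, with a log2 change of 2.73 (SE 0.19), 6.63-fold, and an adjusted p of 0.0112 in edgeR, in a fit that called 0.329% of 14881 genes. It rose from 5.14 ± 0.891 to 34.4 ± 1.84 CPM (SD, n = 2). CA2 went from 27.4 ± 12.8 to 94.3 ± 25.1 CPM (SD, n = 2), a change of 1.77 (SE 0.35; adjusted p 0.181, edgeR). With line as a replicate block CA2 passed in the clones too, at 1.82 (SE 0.14), but that fit has 1 residual degree of freedom and called 15% of all genes. DESeq2 called CA2 as well (1.78, adjusted p 7.44e-06), and 2.08% of genes. The other 4 members tested ran from -0.20 for CA5B to 0.29 for CA13 and did not pass.

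Whether the E2 change itself differed between the clones and the parental line was tested by the interaction. For CA12 it was -0.44 (SE 0.34), a smaller rise in the clones, and for CA2 it was 0.30 (SE 0.58); adjusted p-values were 0.682 and 0.883 in edgeR. CA13, which moved in opposite directions in the clones and the parental line as 13.2% of the genes tested did, had an interaction of 0.67 (SE 0.46; adjusted p 0.657, edgeR). No member passed, and none had an unadjusted p below 0.05. The fit called 0% of all genes, with 1190 genes at an unadjusted p below 0.05. DESeq2 gave an adjusted p to 2900 genes only and called 26 (0.897%). No member was among those 2900, so DESeq2 gave no answer for them. With line as a replicate block the interaction called 15.8% of genes and still no member, with CA12 at -0.44 and an adjusted p of 0.257 in edgeR.

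The table also held 10 other genes with a carbonic anhydrase domain. CA6 had 0 counts in every library. CA1, CA4, CA5A, CA7, CA10 and PTPRZ1 had at most 7 counts and failed the filter, and CA3 had 7 to 15 counts. CA14, another membrane-anchored enzyme, had 34 to 80 counts and an E2 change of -0.40 (SE 0.36). It stood at 1.12 CPM in clone 1, 2.51 CPM in clone 2 and 2.69 CPM in the parental line in DMSO and at 1.16, 1.58 and 2.03 CPM in E2, so the treatments overlapped. PTPRG, a receptor phosphatase with a carbonic anhydrase-like domain, stood at 32.0 to 70.3 CPM. Of these 10 genes 3 were tested and none was called for E2 or for the knockout.

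CA2 lies in a cluster with CA13, CA1 and CA3, and CA12 lies between APH1B and USP3 in the RefSeq order of protein-coding genes. Of the protein-coding genes of the cluster that were tested, CA2 alone was higher in E2 in all 3 lines. CA3 changed by -0.20 (SE 0.45) and CA13 by 0.08 (SE 0.23). Of the 3 genes on each side of CA12 none passed the E2 test. USP3 changed by 0.00 (SE 0.11), APH1B by -0.44 (SE 0.17) and FBXL22, the gene beyond USP3, by 0.75 (SE 0.29) at 0.605 to 1.20 CPM.

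The enzymes work with carriers that move bicarbonate, protons and lactate across the membrane. Of a list of 32 such carriers and their partners 26 were tested, and their median E2 change was 0.23 against -0.02 over all genes tested, with 18 positive and 8 negative values. One was called, SLC16A3, the lactate and proton cotransporter MCT4, against 1.13% of all genes. SLC16A3 stood at 45.5, 26.7 and 48.3 CPM in DMSO and at 130, 121 and 153 CPM in E2, in clone 1, clone 2 and the parental line. The treatments did not overlap, and the log2 change was 1.75 (SE 0.20; adjusted p 0.0167, edgeR). Without the parental line it was 1.79 with an adjusted p of 0.0721 in edgeR. BSG, the chaperone of SLC16A3, changed by -0.26 (SE 0.13) and did not pass.

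In the knockout fit the list had a median difference of 0.14 against 0.01 over all genes tested, and 1 of its 26 genes was called, against 0.327% of all genes. That gene was SLC9A3, an apical sodium-proton exchanger, which stood at 0.639 and 1.60 CPM in the parental line and at 9.81 to 21.7 CPM in the clones. Its difference was 3.85 (SE 0.50; adjusted p 0.0466, edgeR), and it did not pass in limma-voom without a block (adjusted p 0.0758) or with line as a random replicate block (adjusted p 0.10).

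CA9 belongs to a group of genes raised by hypoxia. Of 14 other genes of that group all were tested. Their median E2 change was 0.00 against -0.02 over all genes tested, with 7 values in each direction. VEGFA was called, at 0.95 (SE 0.14; adjusted p 0.0395, edgeR), in a fit that called 1.13% of all genes. VEGFA is named because it was the single call, after its values were seen. Its levels were 52.2 to 64.2 CPM in DMSO and 103 to 129 CPM in E2. CA9 had at most 1 count in libraries where each of the 14 genes passed the filter on low counts.

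Genes with the most similar pattern were sought for the 3 members whose log2 CPM had an SD of at least 0.5 over the 6 libraries. Likeness was the root mean square difference between centred log2 CPM profiles, over 12365 candidates with a mean of at least 2 CPM. The nearest to CA12 was GREB1, an estrogen-induced cofactor of the estrogen receptor, at 0.175. It was followed by SDK2 at 0.261, SLC6A12 at 0.268, SLC6A6 at 0.275 and GDPD5 at 0.280. GREB1 stood at 8.29, 9.77 and 5.14 CPM in DMSO, in clone 1, clone 2 and the parental line. In E2 it stood at 59.8, 66.4 and 50.1 CPM in the same order. Genes named here were picked for likeness over these same libraries, so a shared order of the lines is not a separate result. The nearest to CA2 were RGS10 at 0.241, SLC16A3 at 0.294, CILP at 0.306, LDB3 at 0.309 and HSD11B2 at 0.314. The nearest to CA8 were FGF12 at 0.125, TSPAN7 at 0.172, CST6 at 0.184, LIX1 at 0.190 and CPS1 at 0.195, all high in clone 1. FGF12, for example, stood at 46.5 and 40.9 CPM in clone 1 and at 11.2 to 17.3 CPM in the other 4 libraries.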

How the data were processed

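Gene-level RNA-seq tables of 6 libraries were used. Per the labels, stranded libraries were made from poly(A) RNA. The submitters' processing notes name hg19, HISAT2, SAMtools, Subread and DESeq2, without versions; the annotation and the strand setting are not given in the sources used here. The deposited counts are whole-number counts per gene and library, which the authors did not normalize. The other table deposited by the authors gives a normalized signal, equal to the count divided by 1 size factor per library (0.926 to 1.19); it entered as an alternative only. Column names were matched to titles, with DMOS read as DMSO and ER as E2.

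Counts were tested in R 4.3.3 with edgeR 4.0.16 (TMM, filterByExpr on 4 groups, quasi-likelihood F test, Benjamini-Hochberg adjustment over 15611 genes, or 14881 for the clones alone). Standard errors are the coefficient over the square root of F. Ratios of single libraries used a prior count of 2. Clone numbers in the labels join libraries of 1 line and so pair the treatments; clone differences in DMSO and E2 correlated at 0.626 across genes. Alternatives were median-ratio scaling, other filters, DESeq2 1.42.0, limma-voom (limma 3.58.1), line as a block, each line left out, other prior counts, and Pearson correlation as likeness. The test scripts were tested on simulated data. All 7 genes were named; of the carrier list, up to 3 called genes per direction. Results for some genes are not reported here. The members and lists were chosen with earlier results of these data known. No label says that libraries came from separate cultures, so p-values measure the spread between these libraries. In fits without a block that spread includes the difference between the 2 clones. In the E2 and knockout fits over all 6 libraries it also includes any difference in E2 change between the clones and the parental line. The rest may be technical. The knockout fit without a block counts the 2 libraries of a line as separate units, though they share a line. Limits from a count of 0 use 3 counts and cover counting error only.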

Additional observations from a re-analysis of the deposited data

Results flagged for a closer look

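CA13 changed with E2 in opposite directions in the clones and the parental line. The log2 ratio of E2 over DMSO was 0.51 in clone 1, 0.08 in clone 2 and -0.36 in the parental line, from 105 to 145 counts per library. The interaction was 0.67 with an adjusted p of 0.657 in edgeR, so the difference did not pass its test. Opposite directions of this kind were found for 13.2% of the genes tested.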

How the results depend on the processing

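The call of CA12 for E2 held under each alternative run, with changes of 2.73 to 3.05 over the 3 lines and 2.72 to 2.74 in the clones. Members called for E2 over the 3 lines numbered 1, and 2 (CA12 and CA2) with no filter on low counts, in DESeq2, in limma-voom and with the replicate block; leaving out a line gave 1 to 2. In the clones the count went from 1 to 2 in DESeq2 and with the replicate block. For the knockout it was 0, and 0 to 1 with a clone left out. The replicate block changed no other call of a member. The E2 and knockout fits without a clone have 1 residual degree of freedom.

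Carriers called for E2 went from 1, in a fit that called 1.13% of all genes, to 3 in DESeq2, which called 7.58%. With a line left out they ran from 0 without the parental line (0.329% of all genes) to 10 without clone 2 (21.6%). For the knockout they went from 1 (0.327% of all genes) to 0 in limma-voom, without (0.365%) and with the random replicate block (0.295%). Over all genes the E2 calls went from 176 to 1115 in DESeq2 and to 384 with the replicate block, and ran from 49 to 3353 with a line left out. The knockout calls went from 51 to 460 in DESeq2 and ran from 631 to 996 with a clone left out. Calls in the clones went from 49 to 310 in DESeq2 and 2227 with the replicate block. Interaction calls went from 0 to 26 in DESeq2, of 2900 genes given an adjusted p, and to 2470 with the replicate block. The cause was not tested.

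Some directions reversed. CA13 for E2 reversed without clone 1 (-0.17, against 0.29 at most with another line left out). CA2 for the knockout reversed without clone 1 (-0.24, against 0.54 without clone 2). CA5B for the knockout reversed without clone 2 (0.084, against -0.13 without clone 1). It also reversed with at least 10 counts required in every library (0.00026). Other prior counts and the deposited signal reversed no single-library ratio in 54 checks, in which each ratio was recomputed under each of these settings. The Pearson correlation shared 0 of 5 nearest genes for CA12 and for CA2 and 2 of 5 for CA8. The interaction without a clone and the clones' E2 effect without a clone have no residual degree of freedom and were not run. For CA9 the depth allows no statement below the limits given for a count of 0.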
